A study of Saccharomyces cerevisiae with 15 samples.

Results

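The libraries of [PRT1] and [RBS1] were compared with each other, gene by gene, over the whole deposited table. Both are the yeast mutant rpc128-1007, whose RNA polymerase III (Pol III) is poorly assembled because of an altered second-largest subunit, and each carries a high-copy plasmid that suppresses the mutant's growth defect. The comparison was between 6 libraries, 3 of each strain, of the 15 in the series, chosen by their labels. The mutation, the MATa mating type, the suppressor tRNA SUP11 and alleles of ade2, ura3, lys2, leu2 and his3 are therefore shared by both strains, while the plasmids differ. The plasmid of [RBS1] carries RBS1 and the marker LEU2. That of [PRT1] carries PRT1 and the end of its neighbour PRE10, and the study describes it with either URA3 or LEU2 without stating which was sequenced. Cells were grown overnight in medium that selects for the plasmid and then in rich medium to logarithmic phase, so the selective medium may also have differed. The other strains were rpc128-1007 with an empty vector, [RBS1-R3H] and wt. [RBS1-R3H] carries RBS1 with an inactive R3H domain on a LEU2 plasmid. The strain wt is the mutant complemented by RPC128 on a low-copy plasmid with the marker URA3. Libraries of these strains entered the filter, the scaling and the fit, and their levels are otherwise used beside genes of this comparison. The labels do not state how cultures of a strain were related, so p-values measure the spread between libraries of a strain, estimated over all 15.

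Pol III makes transfer RNAs, 5S ribosomal RNA and other short RNAs, and its subunits must be put together before the enzyme enters the nucleus. Rbs1 is an RNA-binding protein with an R3H domain that is needed for this assembly step. Prt1 is a core subunit of translation initiation factor eIF3, which helps the small ribosomal subunit find start codons. Gcn4, the activator of amino acid synthesis, is made mainly when initiation is slowed, and Leu3, the activator of leucine synthesis, works when its ligand, an intermediate of leucine synthesis, is present.

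The reads of the 6 libraries that fell on genes numbered between 7365923 and 11878873 a library. Levels are given in CPM, counts scaled to a common library total. Of the genes deposited, 5851 passed a filter on low counts and were tested with edgeR's quasi-likelihood test, and a gene was called at a Benjamini-Hochberg adjusted p under 0.05. Replicate 2 of [RBS1] stood apart from the other 5 libraries, at -26.1 on a principal component that ran from -2.31 to 13.4 in the others, and short genes were low in it: the Spearman coefficient of the deviation from the strain mean with gene length was 0.501, next to 0.424 in [PRT1] replicate 1 and 0.0426 in [PRT1] replicate 2. The trend ran the other way in [PRT1] replicate 3 (-0.46), [RBS1] replicate 3 (-0.457) and [RBS1] replicate 1 (-0.274). The 7 MATa markers were expressed, the lowest being ASG7 at 7.79 to 9.04 CPM. Of the 4 MATalpha markers, only the pheromone gene MF(ALPHA)1 was near 0, at 0.40 to 2.65 CPM. MF(ALPHA)2 was at 6.67 to 12.2 CPM, STE3 at 11.7 to 19.1 CPM and SAG1 at 31.0 to 59.7 CPM. These overlapped or lay above the range of ASG7. In [RBS1] replicate 2 the short pheromone genes MFA1 and MFA2 were at 25.9 and 40.8 CPM, below 114 and 124 CPM or more in the other 5 libraries.

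The plasmid genes were read first. PRT1 was at 4947, 5057 and 4449 CPM in the libraries of [PRT1] and at 654, 743 and 594 CPM in those of [RBS1], or 2.86 on the log2 scale (standard error 0.11, adjusted p = 4.3e-10). RBS1 was at 80.3, 99.5 and 76.0 CPM in [PRT1] and at 4223, 4425 and 4581 CPM in [RBS1], or -5.69 on the log2 scale (standard error 0.26, adjusted p = 1.5e-08). Each strain therefore overexpressed the gene its label names, and the groups lay far apart. PRE10, a proteasome subunit whose end lies on the PRT1 insert, differed by 2.31 (adjusted p = 3.8e-08). The markers differed as well. LEU2, an enzyme of leucine synthesis, was at 362, 508 and 497 CPM in [PRT1] and at 2258, 1898 and 3028 CPM in [RBS1] (log2 fold change -2.39, adjusted p = 1.2e-06). URA3, an enzyme of uracil synthesis, was at 958, 997 and 959 CPM in [PRT1] and at 188, 220 and 183 CPM in [RBS1] (log2 fold change 2.30, adjusted p = 4.3e-10). In [RBS1-R3H], whose plasmid carries LEU2, URA3 was at 186 to 227 CPM and LEU2 at 3410 to 4429 CPM. By both markers [PRT1] was unlike the strains with LEU2 plasmids, as the URA3 form of its plasmid would give, though plasmid sequence was not read. The counts do not part plasmid transcripts from chromosomal ones. RET1, the reference's name for RPC128, was level between the strains, at 182 to 210 CPM in [PRT1] and 186 to 212 CPM in [RBS1] (log2 fold change -0.01, standard error 0.09, adjusted p = 0.96).

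Of the 2 genes on each side of PRT1 and RBS1 in the reference, PPH22, the neighbour of RBS1, was the only one called besides PRE10. PPH22, a catalytic subunit of protein phosphatase 2A, was at 60.9, 66.6 and 67.6 CPM in [PRT1] and at 760, 325 and 952 CPM in [RBS1], or -3.38 on the log2 scale (standard error 0.35, adjusted p = 2.5e-05). It was also high in [RBS1-R3H], at 814, 411 and 525 CPM, and lay between 59.1 and 73.1 CPM in wt and in rpc128-1007. High PPH22 thus went with the plasmids that carry RBS1. The call was lost in the fit of both strains alone with a replicate block (adjusted p = 0.062). VTS1, PDE2 and PIP2 beside PRT1 and UFD2, RPL35A and YDL186W beside RBS1 differed by -0.07 to 0.19 on the log2 scale. The call of RPL35A came only when [RBS1] replicate 2 was left out (log2 fold change 0.30, adjusted p = 0.034), and that of UFD2 only when [RBS1] replicate 1 was left out (0.25, adjusted p = 0.044) or with a block (0.19, adjusted p = 0.040).

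In [PRT1] against [RBS1], 943 genes were called, 498 higher in [PRT1], which is 8.51% of the genes tested, and 445 lower, which is 7.61%. Among them, 143 rose and 56 fell by more than 1 on the log2 scale. In 934 of the 943 called genes the libraries of both strains did not overlap, so a lack of overlap adds little to a call. Scaling by library totals alone gave 419 higher and 644 lower genes and shifted the median of all genes by -0.06. A fit of both strains alone, without the other libraries, gave 457 higher and 338 lower genes. The higher genes were not spread evenly over the genome. Chromosome VIII held 292 of the tested genes, and 235 of these, or 80.5%, were higher in [PRT1], while 1 was lower. On the other 15 chromosomes between 2.22% and 7.89% of genes were higher. This pattern was noticed after the values were seen, and it is given as a description.

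**Figure D1:**
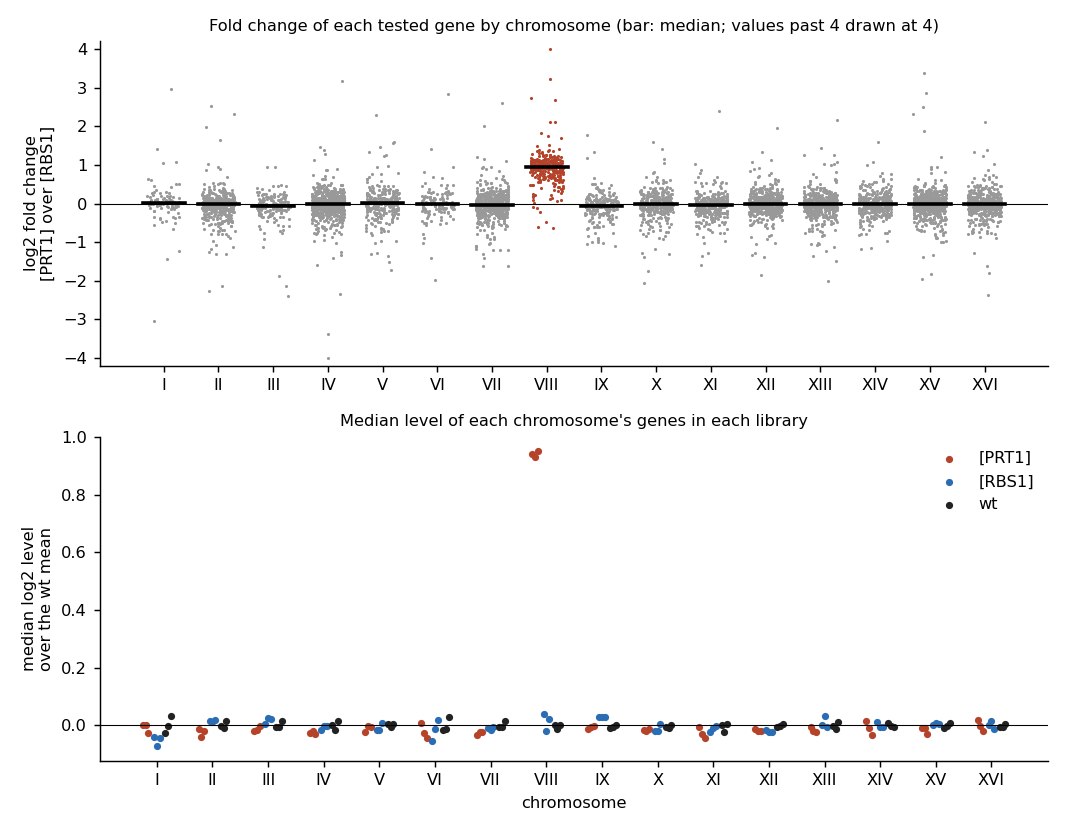
Upper plot: log2 fold change of each tested gene in [PRT1] over [RBS1], by chromosome, with a bar at the chromosome's median (values past 4 are drawn at 4). Lower plot: median over a chromosome's genes of the log2 level over the wt mean (0.5 CPM added to both) in each library of [PRT1], [RBS1] and wt. The chromosome VIII genes have a median fold change of 0.95 and sit at 0.93 to 0.95 over wt in every [PRT1] library, while the medians of the other chromosomes lie near 0.

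The median log2 fold change of the chromosome VIII genes was 0.95, or 1.93-fold, and 251 of them lay between 0.5 and 1.5. The medians of the other chromosomes lay between -0.07 and 0.02. Against the mean of wt, the median level of the chromosome VIII genes was 0.94, 0.93 and 0.95 on the log2 scale in the 3 libraries of [PRT1], and 0.04, -0.02 and 0.02 in those of [RBS1]. All 3 libraries of [PRT1] were therefore raised to the same extent, and those of [RBS1] and wt were not. The raised level ran along the whole chromosome. Its genes with a place in the reference, split into 10 successive stretches of 28, had medians between 0.75, in the last stretch at the right end, and 1.01. The left arm had a median of 0.96 over 50 genes and the right arm 0.94 over 242. Chromosome VIII took 10.1% of the counts on average in [PRT1] and 5.57% in [RBS1]. With any 1 of the 6 libraries removed, between 223 and 232 chromosome VIII genes were called higher. DNA was not measured, so the copy number of the chromosome was not tested.

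Chromosome VIII genes have no common function, and some of the larger departures from the chromosome's median were therefore read gene by gene. NAM8, a splicing factor of the U1 snRNP, was the gene of the chromosome called lower in [PRT1]. It was at 93.2, 82.1 and 81.9 CPM in [PRT1] and 140, 114 and 142 CPM in [RBS1], a log2 fold change of -0.62 (adjusted p = 0.0011), and lay between 33.5 and 38.2 CPM in wt. It was thus above wt in both suppressed strains, and further above it in [RBS1]. ARG4, the last enzyme of arginine synthesis, was at 159 to 178 CPM in [PRT1] and 221 to 286 CPM in [RBS1] (log2 fold change -0.60, adjusted p = 0.14). The hexose transporter gene HXT4 differed by -0.49 (adjusted p = 0.44) and YHI9 by -0.11 (adjusted p = 0.67). PCL5, a cyclin that promotes the breakdown of Gcn4, differed by 0.13 (adjusted p = 0.55). At the other end were SPL2, PHO12, BAT1, HXT1 and ARO9, which are given with their pathways below, and RTC3. RTC3 was at 16.3, 60.04 and 22.5 CPM in [PRT1] and 6.42, 3.33 and 4.96 CPM in [RBS1] (log2 fold change 2.72, adjusted p = 0.016), and its call was lost without [PRT1] replicate 2 (1.96, adjusted p = 0.063), [RBS1] replicate 2 (adjusted p = 0.057) or [RBS1] replicate 3 (adjusted p = 0.060). The open reading frames YHR052W-A and YHR054W-A of the CUP1 repeat had log2 fold changes of 2.11 and 2.10, but they are near-identical copies and their reads cannot be parted.

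On the 15 other chromosomes 263 genes were higher in [PRT1], or 4.73% of the 5559 tested, and 444 were lower, or 7.99%. Fewer were higher without [RBS1] replicate 3 (169) or [PRT1] replicate 1 (170), and over all genes fewer were lower without [PRT1] replicate 2 (259) or 1 (296). The lists below are read against these shares, with and without their chromosome VIII members. When the chromosome VIII genes were left out before scaling and fitting, an alternative added after the data were seen, 272 genes were higher and 349 lower.

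The genes that Leu3 controls were higher in [PRT1]. Leu3 binds a short inverted repeat, written here as CCGNNNNCGG, in which N is any base. The repeat was searched for, on both strands, in the 500 bases before the start codon in the RefSeq R64 reference. It was found before 8 of the 9 targets listed, all except LEU4, and before 3.23% of the 5698 genes with such a window. A match is a description of the sequence and does not show that the site is used. The windows below show the repeat in capitals with its flanks, 5′ to 3′ on the strand of the gene, because the 8 listed targets that hold it were all called.
LEU1, chrVII:478850-478879, minus strand: aacgaaaattCCGGGACCGGcgaaatttgc
LEU1, chrVII:478820-478849, minus strand: ccggttttgtCCGTAACCGGcttcatgagt
BAT1, chrVIII:517375-517404, plus strand: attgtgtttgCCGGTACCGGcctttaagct
OAC1, chrXI:216850-216879, plus strand: ccgaaagatgCCGGAAACGGtcttaggccg
ALD5, chrV:303530-303559, plus strand: ttttttggCCGCTACCGGactagcaagggc
MAE1, chrXI:384867-384896, minus strand: gaagtcgtacCCGTTACCGGcatgattgac
ILV5, chrXII:839611-839640, minus strand: gcggtctcctCCGGTACCGGttctgccacc
ILV2, chrXIII:483606-483635, plus strand: ccggagcctgCCGGTACCGGcttggcttca
GDH1, chrXV:1043427-1043456, minus strand: aaccaatgcgCCGGAACCGGcccatgcatt

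Of the 9 Leu3 targets, 8 were higher in [PRT1] and none was lower, with a median log2 fold change of 1.03, against -0.01 over all genes tested. Without BAT1, which lies on chromosome VIII, 7 of 8 were higher and the median was 0.94. LEU1, isopropylmalate isomerase of leucine synthesis, was at 1390, 1838 and 1629 CPM in [PRT1] and at 273, 274 and 248 CPM in [RBS1], or 2.61 on the log2 scale (standard error 0.14, adjusted p = 1.8e-08). BAT1, the mitochondrial branched-chain aminotransferase, was at 2804, 3228 and 2873 CPM against 464, 472 and 440 CPM, or 2.69 on the log2 scale (standard error 0.12, adjusted p = 1.5e-09), which is 1.75 above the median of its chromosome. OAC1, the mitochondrial carrier of oxaloacetate and isopropylmalate, was at 428, 569 and 493 CPM against 101, 82.1 and 102 CPM (log2 fold change 2.39, standard error 0.18, adjusted p = 4.4e-07). None of these genes had a library of one strain within the range of the other. The aldehyde dehydrogenase ALD5 and the malic enzyme MAE1 followed with 1.25 (adjusted p = 6.3e-05) and 1.03 (adjusted p = 0.00031). The enzymes of valine and isoleucine synthesis ILV5 and ILV2 differed by 0.85 and 0.46, and the glutamate dehydrogenase GDH1 by 0.51. LEU4, the enzyme that makes the ligand of Leu3, was at 383, 392 and 416 CPM in [PRT1] and 338, 280 and 330 CPM in [RBS1] (log2 fold change 0.33, adjusted p = 0.18), and it was called only in fits of both strains alone (adjusted p = 0.042, and 0.027 with a block). BAP2, a branched-chain amino acid permease outside the list, was also higher, with 1.03 (adjusted p = 3.0e-06).

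**Figure D2:**
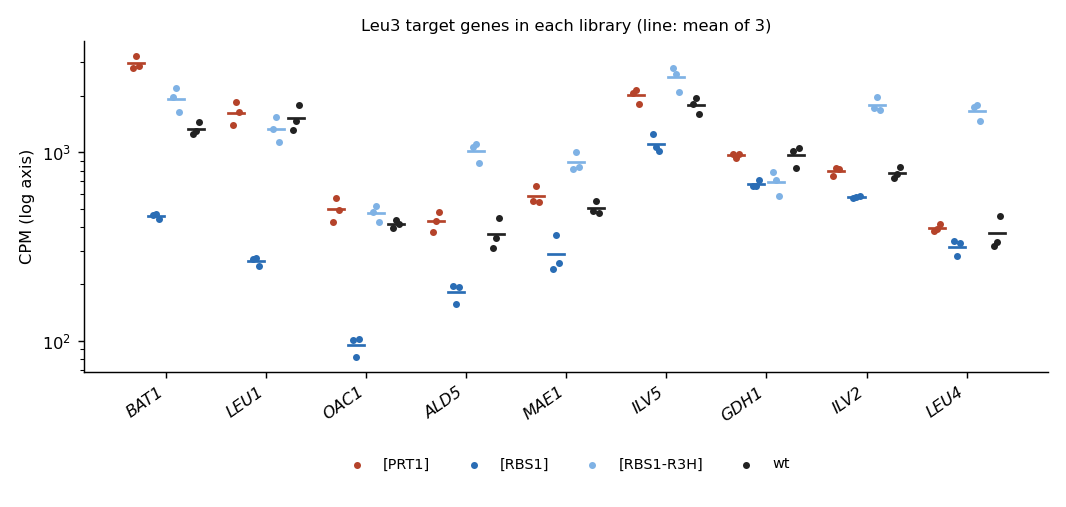
Level in CPM, on a log axis, of each Leu3 target in the libraries of [PRT1], [RBS1], [RBS1-R3H] and wt, with lines at the mean of 3. In BAT1, LEU1 and OAC1 the [RBS1] libraries lie below all others, at 440 to 472, 248 to 274 and 82.1 to 102 CPM.

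The same genes were set beside wt to see which strain had moved. [PRT1] differed from wt in 678 genes (11.6% of those tested) and [RBS1] in 636 (10.9%). Of the Leu3 targets, 8 were lower in [RBS1] than in wt and none higher, with a median of -0.82, whereas in [PRT1] BAT1 alone was called, higher by 1.16 (adjusted p = 2.9e-06), and the median was 0.17. LEU1, for example, was at 1317, 1467 and 1777 CPM in wt, within reach of [PRT1] and well above [RBS1]. By these values [RBS1] was the strain away from wt. The markers were divided in the same way: wt carried URA3 on its plasmid and had URA3 at 746, 746 and 722 CPM and LEU2 at 317 to 421 CPM, nearer to [PRT1], whereas LEU2 was high and URA3 low in [RBS1]. The part of the marker in this difference was not tested. [RBS1-R3H] carries the same LEU2 marker as [RBS1], and 27.7% of all genes were called between these strains. LEU2 was at 4429, 3410 and 3441 CPM in [RBS1-R3H], above [RBS1] (log2 fold change -0.65 in [RBS1] against it, adjusted p = 0.017). Of the Leu3 targets, 8 were lower in [RBS1] than in [RBS1-R3H], with a median of -2.07, and LEU1 was at 1330, 1544 and 1135 CPM in [RBS1-R3H]. LEU1 thus overlapped wt in [RBS1-R3H], but LEU4 was at 1730, 1781 and 1469 CPM there, against 318 to 460 CPM in wt. The median of -2.07 therefore also holds changes in [RBS1-R3H]. [RBS1] and [RBS1-R3H] also differ in their Gcn4-type genes, described next. Between [PRT1] and [RBS1] the suppressor gene, the marker and the selective medium cannot be told apart. Nor can the raised chromosome VIII genes of [PRT1], or PRE10 and PPH22, which went with the plasmids, be told apart from these. Of the 3 targets of Ppr1, the activator of uracil synthesis, URA10 was lower in [PRT1], at 6.47, 8.79 and 5.94 CPM against 18.8, 17.2 and 24.4 CPM (log2 fold change -1.50, adjusted p = 0.00018), and URA1 and URA4 differed by -0.30 and -0.25 and were not called (adjusted p = 0.15 and 0.072). URA4 was called without [PRT1] replicate 1 (adjusted p = 0.043) or [RBS1] replicate 1 (adjusted p = 0.034).

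Genes for the synthesis of arginine, histidine and lysine, which Gcn4 activates, were lower in [PRT1]. Gcn4 binds TGACTCA, which was found on either strand before 9 of the 10 arginine genes listed, all except ARG2, and in 4.14% of all windows. The windows before 3 of the arginine genes that were called are shown, with the motif in capitals.
ARG3, chrX:268474-268503, plus strand: gggtcacgtcgTGACTCAtatgctttcttg
ARG1, chrXV:218855-218884, plus strand: tgattttttagTGACTCAtgtcgcatttgg
ARG7, chrXIII:396513-396542, minus strand: gacaggtaggaTGACTCActgcgtaattcg

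Of the 10 arginine genes, 7 were lower in [PRT1] and none was higher, with a median of -0.82. ARG3, ornithine carbamoyltransferase, was at 17.3, 10.3 and 13.8 CPM in [PRT1] and 64.3, 41.9 and 65.5 CPM in [RBS1], or -2.06 on the log2 scale (standard error 0.38, adjusted p = 0.0028). ARG1, arginosuccinate synthetase, was at 110, 85.7 and 126 CPM against 448, 310 and 491 CPM, or -1.96 on the log2 scale (standard error 0.39, adjusted p = 0.0050). The groups did not overlap in either gene. ARG7, which makes ornithine, differed by -1.06 (adjusted p = 0.0043). Between 4, without [PRT1] replicate 2, and 6 arginine genes were called when 1 library was removed. In wt, ARG1 was at 169, 81.8 and 299 CPM, overlapping [PRT1] and below every library of [RBS1]. None of the arginine genes was called in [PRT1] against wt, and 1 was called, higher, in [RBS1] against wt. ARG1 was not called there (log2 fold change 1.19, adjusted p = 0.074). The medians against wt were -0.35 in [PRT1] and 0.63 in [RBS1], so wt does not show which strain moved. [RBS1-R3H] had by far higher levels, with ARG1 at 2371 to 3298 CPM.

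The histidine genes had 4 of 7 lower, with a median of -0.42, and the lysine genes 5 of 9, with a median of -0.68. None of either list was higher, and none was called in [PRT1] or in [RBS1] against wt. HIS4, a multifunctional enzyme of histidine synthesis, was at 312, 272 and 285 CPM in [PRT1] and 525, 537 and 572 CPM in [RBS1] (log2 fold change -0.91, adjusted p = 0.0037). LYS1, the last enzyme of lysine synthesis, was at 186, 164 and 190 CPM against 427, 363 and 358 CPM (log2 fold change -1.09, adjusted p = 0.0099). LYS20, a homocitrate synthase, differed by -0.68 and was not called (adjusted p = 0.060). These lists are small and thin in calls. With 1 library removed, HIS3 kept its call only without [RBS1] replicate 1, 2 histidine genes were called in the fits without any [PRT1] replicate or without [RBS1] replicate 2 or 3, and 3 lysine genes were called without [PRT1] replicate 1 or 2 or [RBS1] replicate 1 or 2. In the aromatic list 7 of 14 were lower, with TRP3 at -0.65 and ARO8 at -0.62, while ARO9, an aminotransferase on chromosome VIII, was higher by 1.69 (adjusted p = 0.0018). Without [PRT1] replicate 2 the number lower in the aromatic list was 3, and 4 without [PRT1] replicate 3 or [RBS1] replicate 1 or 3.

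The study names further genes as part of the amino acid response. Of these, BAT1, OAC1, MAE1 and ALD5 were higher, as given with the Leu3 targets, and those below were lower except where stated. SNZ1, of vitamin B6 synthesis, was at 59.9, 81.2 and 74.5 CPM in [PRT1] and 203, 135 and 217 CPM in [RBS1] (log2 fold change -1.36, adjusted p = 0.0028). ADH5, an alcohol dehydrogenase, was at 26.1, 22.7 and 26.9 CPM against 66.6, 51.0 and 67.6 CPM (log2 fold change -1.30, adjusted p = 0.00055). BNA1 of nicotinic acid synthesis differed by -0.74, the GTP and GDP carrier GGC1 by -0.95 and the carrier YMC1 by -0.58. GGC1 lost its call without [PRT1] replicate 1 (adjusted p = 0.050) or 2 (adjusted p = 0.061). RIB5 of riboflavin synthesis differed by -0.53 and was not called (adjusted p = 0.055), and IGD1 differed by 0.68 and was not called (adjusted p = 0.30). Over the vitamin list, 6 of 16 genes were lower, none higher, and the median was -0.27. GCN4 itself was at 1072, 1206 and 1220 CPM in [PRT1] and 1378, 1296 and 1491 CPM in [RBS1], a small difference of -0.25 (standard error 0.07, adjusted p = 0.028), which was not called without [PRT1] replicate 1 (-0.19, adjusted p = 0.14) or 2 (adjusted p = 0.070) or [RBS1] replicate 1 (adjusted p = 0.068) or 3 (adjusted p = 0.14). The level of GCN4 RNA does not measure Gcn4 protein. As the study's examples were chosen on these libraries, they are not independent evidence.

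Sulfur and methionine genes were lower in 8 of 24 tested and higher in none, with a median of -0.22. MET13, which makes methyltetrahydrofolate for methionine synthesis, was at 28.7, 34.1 and 28.1 CPM in [PRT1] and 103, 74.0 and 100 CPM in [RBS1] (log2 fold change -1.61, adjusted p = 4.8e-05). SAM2, an S-adenosylmethionine synthetase, was at 155, 163 and 148 CPM against 400, 329 and 381 CPM (log2 fold change -1.25, standard error 0.10, adjusted p = 6.0e-07). MET6, methionine synthase, differed by -0.96 (adjusted p = 0.00020). In wt SAM2 lay at 312 to 346 CPM, near [RBS1], and MET13 at 33.4 to 51.2 CPM, near [PRT1], so neither strain stood at the wt level for both genes. The remaining 16 genes of the list were not called.

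Genes of the phosphate response were higher in [PRT1]. In this pathway the cyclin and kinase Pho80 and Pho85 keep the activator Pho4 out of the nucleus when phosphate is ample, and Pho4 otherwise turns on transporters, acid phosphatases and the VTC complex that makes polyphosphate. Pho4 binds CACGTG, which reads the same on both strands. It was found before 12 of the 21 genes listed, all 12 of them called, and in 6.32% of all windows. The windows shown are those before a regulator, a gene of unknown role, a transporter and an acid phosphatase with large differences, with the motif in capitals.
SPL2, chrVIII:375173-375202, minus strand: tctctcttttccCACGTGctccgctctctt
PHM6, chrIV:1022583-1022612, minus strand: gagcttcgctgaCACGTGggaggtgggata
PHO84, chrXIII:26219-26248, minus strand: atttaatagttcCACGTGgacgtgttattt
PHO84, chrXIII:26197-26226, minus strand: tgttatttccagCACGTGgggcggaaatta
PHO5, chrII:431187-431216, minus strand: ccttggcactcaCACGTGggactagcacag

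Of the 21 phosphate genes, 16 were higher in [PRT1] and none was lower, with a median of 1.11. Without SPL2 and PHO12, which lie on chromosome VIII, 14 of 19 were higher and the median was 0.96. With 1 library removed, between 13 and 17 were called. SPL2, an inhibitor of low-affinity phosphate uptake, was at 300, 321 and 237 CPM in [PRT1] and 13.2, 24.5 and 4.63 CPM in [RBS1], or 4.36 on the log2 scale (standard error 0.56, adjusted p = 0.00022). PHM6 was at 76.4, 104 and 77.5 CPM against 10.5, 9.26 and 8.38 CPM (log2 fold change 3.18, standard error 0.29, adjusted p = 3.3e-06). Both genes were apart by more than the range of either strain.

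The transporter genes differed as well. PHO89, the sodium-coupled phosphate transporter, was at 169, 274 and 162 CPM in [PRT1] and 25.3, 67.1 and 14.7 CPM in [RBS1] (log2 fold change 2.52, adjusted p = 0.017). PHO84, the high-affinity transporter, was at 2291, 2483 and 1721 CPM against 376, 917 and 170 CPM (log2 fold change 2.15, standard error 0.59, adjusted p = 0.029). Within [RBS1], replicate 2 was the highest library for both genes and replicate 3 the lowest. This order was not particular to [RBS1]: replicate 2 was the highest for both genes in every other strain too. In wt, for example, PHO89 was at 15.9, 39.4 and 22.1 CPM. The call of PHO84 was lost without [PRT1] replicate 1 (adjusted p = 0.067) or 2 (0.076) or [RBS1] replicate 1 (0.10) or 3 (0.075), and that of PHO89 without [PRT1] replicate 2 (adjusted p = 0.058) or [RBS1] replicate 1 (0.070) or 3 (0.062). GIT1, the glycerophosphoinositol transporter, was at 31.2, 23.8 and 23.5 CPM against 14.0, 14.4 and 12.0 CPM (log2 fold change 0.96, adjusted p = 0.00051).

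The acid phosphatase PHO5 was at 146, 157 and 96.0 CPM in [PRT1] and 35.9, 39.2 and 26.7 CPM in [RBS1] (log2 fold change 1.97, adjusted p = 0.0016). PHO11 and PHO12 had 2.98 and 3.23, but they are near-identical copies on chromosomes I and VIII whose reads may be split between them. The VTC genes followed with 2.11 for VTC3, 1.57 for VTC1 and 0.82 for VTC2, and VTC4 was at 627 to 844 CPM against 196 to 419.8 CPM (adjusted p = 0.0080). PHO81, which inhibits the Pho80 and Pho85 pair, differed by 1.11, the vacuolar alkaline phosphatase PHO8 by 0.74 and PHO4 itself by 0.52 (adjusted p = 0.0042). PHO80 and PHO85 were not called (0.21 and -0.06), nor were the low-affinity transporter PHO90, the constitutive phosphatase PHO3 and the inositol polyphosphate kinase KCS1. The wt mean lay between both strains for the called genes other than GIT1 and PHO89, where it was below both. PHO84 was at 606, 1358 and 589 CPM there, and 7 members were higher in [PRT1] and 5 lower in [RBS1] against wt, with medians of 0.73 and -0.41. [RBS1-R3H], which shares the LEU2 marker with [RBS1], was low as well, with PHO84 at 226, 287 and 197 CPM. In [RBS1] against [RBS1-R3H], 2 members were higher and 3 lower, with a median of 0.49, where 27.7% of all genes were called. Low phosphate genes thus went with both LEU2 plasmids, and the part of the marker was not tested.

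**Figure D3:**
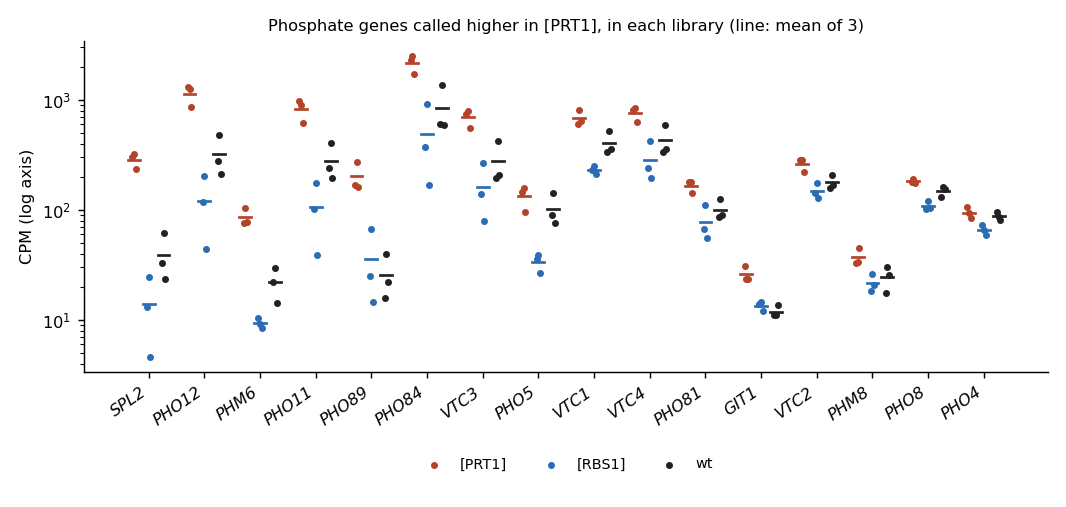
Level in CPM, on a log axis, of the 16 phosphate genes called higher in [PRT1], in the libraries of [PRT1], [RBS1] and wt, with lines at the mean of 3. The [PRT1] libraries lie above the [RBS1] libraries for every gene drawn, and a lack of overlap was seen in 934 of all 943 called genes. The wt libraries of PHO84, at 589 to 1358 CPM, overlap the range of [RBS1].

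Genes for phospholipids and inositol moved the other way. The activators Ino2 and Ino4 bind as a pair to elements with the core CATGTG, and the repressor Opi1 acts on them when inositol is present. The core was found on either strand before 10 of the 14 genes listed, and in 13.1% of all windows, so it is common by itself. Windows are given for the 4 genes with the lowest fold changes, with the core in capitals, or CACATG where it lies on the other strand.
OPI3, chrX:573130-573159, minus strand: tcaatgagagtgCATGTGgaaagttgcacc
CHO1, chrV:208616-208645, minus strand: cctttgagctttCACATGgacccatctaaa
CPT1, chrXIV:380978-381007, minus strand: tcgattaaagtgCATGTGaaaattcgcggg
ITR1, chrIV:1445671-1445700, minus strand: ccttccccaccgCATGTGaaaaaagctcga

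Of the 14 genes, 9 were lower in [PRT1], and the 3 that were higher, INM1 (1.25), EPT1 (0.62) and OPI1 (0.56), all lie on chromosome VIII. Of the 11 on other chromosomes none was higher, and their median was -0.70. CHO1, phosphatidylserine synthase, was at 76.4, 79.8 and 86.5 CPM in [PRT1] and 225, 218 and 250 CPM in [RBS1], or -1.51 on the log2 scale (standard error 0.09, adjusted p = 4.5e-08). OPI3, a phospholipid methyltransferase, was at 20.7, 25.1 and 25.8 CPM against 70.7, 75.6 and 92.0 CPM, or -1.74 on the log2 scale (standard error 0.18, adjusted p = 6.4e-06). ITR1, the inositol transporter, was at 217, 208 and 205 CPM against 385, 409 and 442 CPM (log2 fold change -0.97, standard error 0.09, adjusted p = 1.2e-06). Replicates were close in all of these genes and the strains did not overlap.

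CPT1, a cholinephosphotransferase, differed by -1.18, the activator INO4 by -0.89 (adjusted p = 5.9e-05), and PSD1, INO1, CHO2 and CKI1 by -0.70, -0.70, -0.68 and -0.46. INO2 (-0.40, adjusted p = 0.21) and the phosphatidylinositol synthase PIS1 (-0.18, adjusted p = 0.073) were not called. INO1, the inositol-making enzyme that heads this regulon, was low in both strains, at 8.77, 12.5 and 9.99 CPM in [PRT1] and 14.3, 21.2 and 15.4 CPM in [RBS1]. Of the 11 genes off chromosome VIII, 5 were lower in [PRT1] than in wt and 4 higher in [RBS1] than in wt, with medians of -0.38 and 0.47. CHO1 was at 140, 109 and 129 CPM in wt, between both strains. OPI1 was at 77.9, 71.2 and 66.4 CPM in [PRT1] and 55.4, 50.02 and 40.8 CPM in [RBS1], below the median change of its chromosome by 0.39 on the log2 scale.

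**Figure D4:**
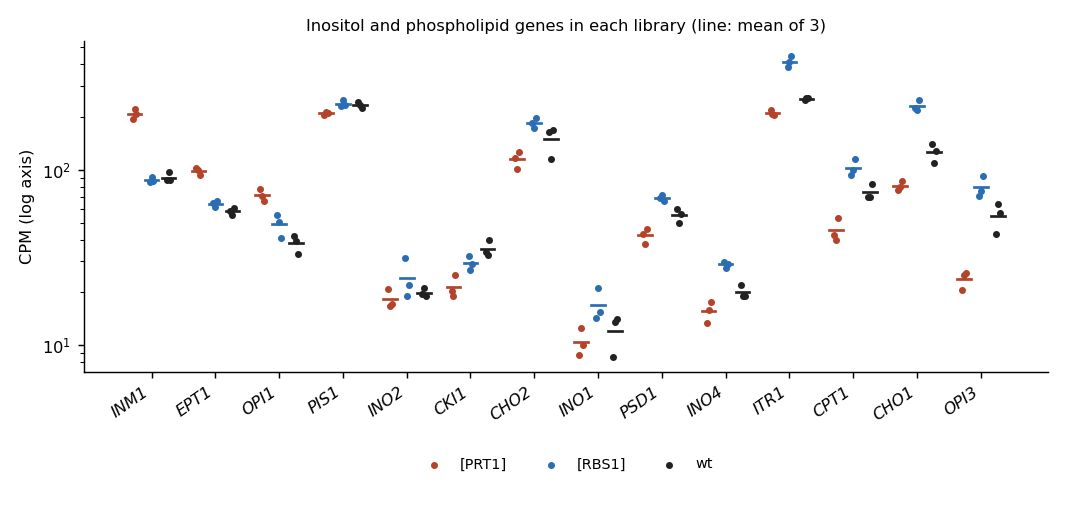
Level in CPM, on a log axis, of the 14 inositol and phospholipid genes in the libraries of [PRT1], [RBS1] and wt, with lines at the mean of 3. INM1, EPT1 and OPI1, on chromosome VIII, are higher in [PRT1], and for CHO1 the wt libraries, at 109 to 140 CPM, lie between [PRT1] and [RBS1].

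In the list of hexose transporters and their regulators, 3 of 20 tested were higher and 4 lower. The 3 higher were HXT1 and the regulators MTH1 and STD1, so no transporter off chromosome VIII was called higher. HXT1, the low-affinity transporter of cells in high glucose, lies on chromosome VIII and was at 701, 726 and 831 CPM in [PRT1] and 174, 217 and 243 CPM in [RBS1] (log2 fold change 1.83, adjusted p = 9.9e-07), 0.89 above its chromosome's median. HXT2, which is expressed at lower glucose, was at 649, 695 and 549 CPM against 1074, 1152 and 1124 CPM (log2 fold change -0.82, adjusted p = 0.0013). HXT6 and HXT7, high-affinity transporters of near-identical sequence, differed by -1.34 and -1.42, and their reads cannot be parted. MTH1, a repressor of HXT genes, was higher by 0.90 (adjusted p = 0.00047). The low transporter HXT10, at 1.15 to 5.05 CPM in the 6 libraries (log2 fold change -1.40), lost its call without any of 5 of the libraries, with adjusted p between 0.056 and 0.15.

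Among mitochondrial carriers 5 of 28 were higher and 8 lower. Besides OAC1 the higher ones included the dicarboxylate carrier DIC1, at 54.4, 41.7 and 54.5 CPM in [PRT1] and 25.0, 20.9 and 25.3 CPM in [RBS1] (log2 fold change 1.08, adjusted p = 0.00011). The citrate carrier CTP1 was at 149, 151 and 149 CPM against 332, 399.5 and 251 CPM (log2 fold change -1.13, adjusted p = 0.0045), and the ADP and ATP carrier PET9 differed by -0.63. The number lower was 5 without [PRT1] replicate 1 and 4 without [PRT1] replicate 2. Of the pheromone response genes, 5 of 14 were lower, among them TEC1 (-0.85) and the cell cycle inhibitor FAR1 (-0.73), and STE12 and GPA1, both on chromosome VIII, were higher by 0.63 and 0.37. The a-cell receptor gene STE2 was at 382, 387 and 360.4 CPM in [PRT1] and 666, 631 and 647 CPM in [RBS1] (log2 fold change -0.78, adjusted p = 4.7e-06), and the protease gene BAR1 differed by -1.01. Of the 7 MATa markers only these 2 were called. The MATalpha marker SAG1 was also lower (-0.83, adjusted p = 3.3e-05), and so was MF(ALPHA)1 (-1.80, adjusted p = 0.046), which was near 0 CPM.

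Ribosomal protein genes were slightly higher in [PRT1], and few genes of ribosome assembly or of Pol III were called. Among the 136 cytosolic ribosomal protein genes tested, 23 were higher and none was lower, with a median of 0.16. Of these, 7 lie on chromosome VIII, and of the 129 others 16 were higher, a larger share than the 4.73% over all genes off chromosome VIII. RPL7B was at 216, 214 and 185 CPM in [PRT1] and 92.5, 69.8 and 72.6 CPM in [RBS1] (log2 fold change 1.39, adjusted p = 1.2e-06), and the other 15 differed by 0.26 to 0.54. Ribosomal protein genes are mostly pairs of near-identical copies, so reads may be split between them. With the replicate block 36 were called. Against wt, 1 of the 129 was higher in [PRT1] and none lower, with a median of -0.01. In [RBS1] 10 were lower than in wt and none higher, with a median of -0.175. These shares were not above those over all genes, 11.6% and 10.9%. Of 111 ribosome assembly genes 11 were higher, 9 of them on chromosome VIII, and of 72 mitochondrial ribosome genes 2 were higher, both on chromosome VIII. For the assembly and mitochondrial lists, the higher genes were largely those of chromosome VIII.

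The proteasome genes, listed without PRE10 because its end lies on the PRT1 plasmid, had 2 of 33 higher, RPN1 (0.91) and RPN10 (0.68), both on chromosome VIII, and 2 lower, PRE5 and PUP1, which were not called without [PRT1] replicate 2 (adjusted p = 0.14 and 0.053) or [RBS1] replicate 3 (0.16 and 0.050), PRE5 also not without [PRT1] replicate 1 (0.13) or [RBS1] replicate 1 (0.078). Of the 17 Pol III subunit genes only RPC10, on chromosome VIII, was called, at 333, 471 and 459 CPM in [PRT1] and 263, 114 and 234 CPM in [RBS1] (log2 fold change 1.05, adjusted p = 0.037). RPC10 is short and its call was lost without [PRT1] replicate 2 (adjusted p = 0.11) or 3 (0.096) or [RBS1] replicate 2 (0.072) or 3 (0.068). RPB10, the subunit shared by the 3 nuclear RNA polymerases, was at 164, 224 and 211 CPM in [PRT1] and 253, 132 and 248 CPM in [RBS1], so that the strains overlapped (log2 fold change -0.08, standard error 0.28, adjusted p = 0.90). Among eIF3 genes and their partners other than PRT1, HCR1, an eIF3-associated factor, was lower, with -0.54 (adjusted p = 0.0033), and the other 9 were not called.

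**Figure D5:**
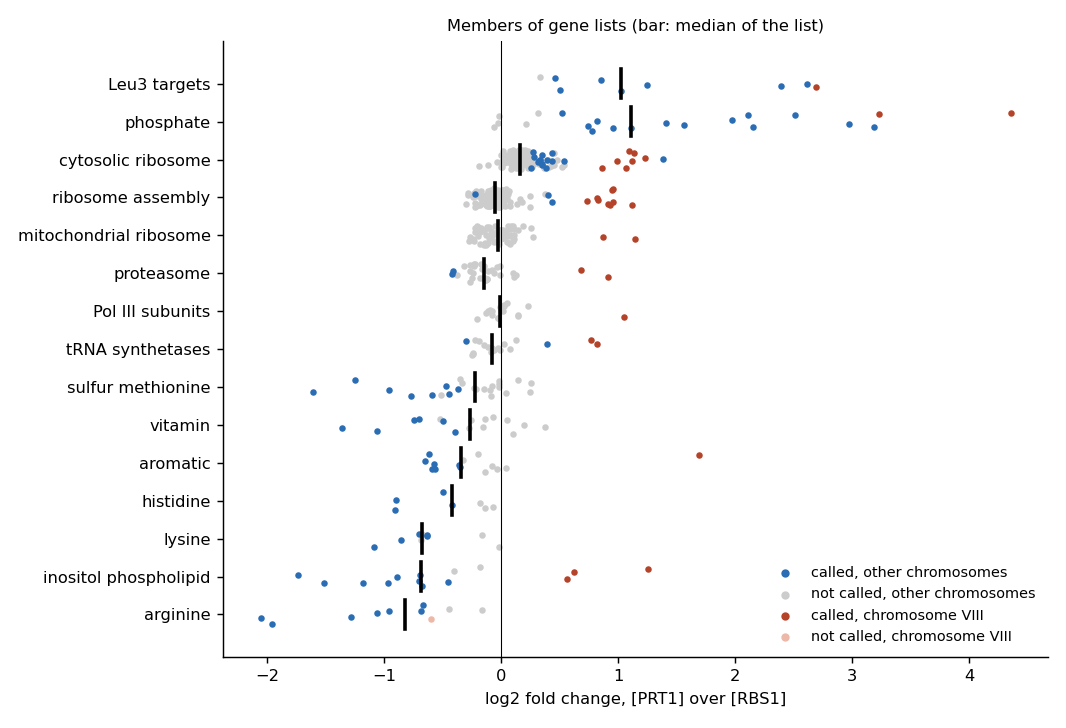
Log2 fold change in [PRT1] over [RBS1] of each tested member of 15 gene lists, with a bar at the list's median. Genes of chromosome VIII are drawn in red (pale where not called) and those called lie above 0, the Leu3 and phosphate lists have medians of 1.03 and 1.11, and the arginine and phospholipid lists have medians of -0.82 and -0.69.

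The genes with the most extreme fold changes were read last. By a rule that takes the 15 highest and 15 lowest called genes with no overlap between strains and at least 10 CPM in the higher one, the highest were plasmid, Leu3 and phosphate genes, RTC3, and the stress genes HSP12 and DDR2. HSP12, a small membrane-protecting heat shock protein, was at 16.6, 82.4 and 17.3 CPM in [PRT1] and 6.17, 3.33 and 6.62 CPM in [RBS1] (log2 fold change 2.84, standard error 0.84, adjusted p = 0.041). Its level in [PRT1] thus rested on replicate 2, and without that library the value was 1.64 (adjusted p = 0.20). The call of HSP12 was also lost without [RBS1] replicate 1 (adjusted p = 0.11), 2 (0.11) or 3 (0.10). DDR2, at 8.87, 42.5 and 13.8 CPM against 4.73, 0.86 and 5.62 CPM, behaved likewise (2.50, adjusted p = 0.032, and 1.56 with adjusted p = 0.15 without [PRT1] replicate 2), and was not called without [RBS1] replicate 1 (0.078), 2 (0.083) or 3 (0.060). Of 26 heat shock and stress genes these were the only 2 called.

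Among the lowest, several genes were higher in [RBS1] than in every other strain. PRB1, the vacuolar proteinase B, was at 133, 212 and 231 CPM in [PRT1] and 616, 610 and 660 CPM in [RBS1], or -1.71 on the log2 scale (standard error 0.30, adjusted p = 0.0015), and at most 306 CPM in the libraries of the other strains. SPR28, a septin of sporulating cells, was at 2.51, 2.30 and 2.97 CPM against 13.6, 12.5 and 13.01 CPM (log2 fold change -2.33, adjusted p = 3.1e-06), and at most 6.67 CPM elsewhere. SPS2, a sporulation gene, ECM8 and the unnamed YKR015C differed by -1.60, -2.14 and -1.60. These genes are low, and SPR28, SPS2 and ECM8 stayed at or under 22.5 CPM in every library. RTC2, a vacuolar transporter of basic amino acids, was at 2.61, 2.40 and 3.24 CPM in [PRT1] and 17.4, 9.26 and 12.0 CPM in [RBS1] (log2 fold change -2.27, adjusted p = 0.0096), but was far higher in [RBS1-R3H], at 67.4 to 113 CPM. With limma-voom RTC2 was not called (adjusted p = 0.068).

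Of the branched-chain synthesis genes outside the Leu3 list, ILV3 and BAT2 were higher by 0.61 (adjusted p = 0.0010) and 0.55 (adjusted p = 0.0090). ILV6, the regulatory subunit of acetolactate synthase, moved the other way, at 228, 309 and 243 CPM in [PRT1] and 405, 476 and 349 CPM in [RBS1] (log2 fold change -0.66, adjusted p = 0.039). Its call was lost without [PRT1] replicate 1 (adjusted p = 0.14) or 3 (0.12) or [RBS1] replicate 1 (0.084) or 2 (0.13). LEU3 itself and ILV1 were not called (-0.19 and -0.14), and LEU9, the second isopropylmalate synthase, differed by 0.25 (adjusted p = 0.19).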

How the data were processed

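The series holds poly(A)-selected RNA-seq of 5 strains with 3 libraries each. The authors mapped the reads with TopHat2 2.0.11 to the EF4 assembly, counted them per gene in R and deposited raw counts for 6600 genes in each library, without normalization. The counting mode and its use of strand are not given in the sources used here. Here, TMM scaling factors were computed and the counts fitted with edgeR 4.0.16 (R 4.3.3), with a mean for each strain over all 15 libraries, quasi-likelihood tests and Benjamini-Hochberg adjustment over the 5851 genes that reached 1.06 CPM in 3 or more libraries and a total of 15 counts. The method was also run on simulated counts, drawn independently for each library. These held no length trend, replicate effect or raised chromosome, so the run does not show how the method handles those. Chromosomes were taken from systematic names. R64 names matched 5917 genes, and unmatched identifiers held 0.215% of counts. Coordinates are R64 matches made here.

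The strains, the 40 lists and the naming rule were chosen with earlier results of these data known. Named genes are those of the plasmid, Leu3 and Ppr1 lists, neighbours of the inserts, the 15 highest and 15 lowest, up to 3 called members at each end of a described list, and the study's examples. Chromosome VIII genes, other list members described, BAP2 and the genes of the closing section were chosen after their values were seen. Alternatives were library totals, median-ratio scaling, no filter, DESeq2 1.42.0, limma-voom 3.58.1, a replicate block, both strains alone, each library left out and removal of length trends. Omission of 2 libraries or of chromosome VIII, and both strains alone with a block, were added after seeing the data. The values of 1 gene that the naming rule takes are not reported here.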

Additional observations from a re-analysis of the deposited data

Results flagged for a closer look

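In rpc128-1007 with the empty vector, which is not a side of the tests above although its libraries enter the fit and its levels are given for a few genes, genes of several chromosomes lay above every wt library. The median log2 level over wt of the chromosome XI genes was 0.806, 0.354 and 0.482 in replicates 1, 2 and 3, against at most 0.00616 in a wt library. For chromosome VIII it was 0.272 in replicate 2 and 0.322 in replicate 3, with at most 0.00272 in wt. For chromosome I it was 0.272 in replicate 2 and 0.267 in replicate 3, with at most 0.0325 in wt. The replicates thus differed among themselves, unlike those of [PRT1], and no library of [RBS1-R3H] exceeded wt by more than 0.1 on any chromosome. OAC1 and MAE1 lie on chromosome XI, so their levels against this strain move with that chromosome's.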

How the results depend on the processing

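None of the 141 named genes that were called changed direction under the 17 alternatives, and 94 kept the call in all of them. Of the named genes not called, RET1, VTS1, PIP2, YDL186W and RPB10 changed sign, RPB10 between -0.33 and 0.07. Same-numbered libraries of [PRT1] and [RBS1] had residual correlations of -0.232, -0.13 and 0.478, and only number 3 matched best with itself, so numbers were not taken as pairs. These correlations over all genes cannot exclude an effect of the replicate number on some genes. PHO84 and PHO89, for example, were highest in replicate 2 of each of the 5 strains. A replicate block raised the calls from 943 to 1371. With the replicate block 703 genes were lower, 421 genes off chromosome VIII were higher, and 1216 and 1162 genes were called in [PRT1] and [RBS1] against wt. Without chromosome VIII genes 621 genes were called, 272 of them higher. Without [RBS1] replicate 2 and rpc128-1007 replicate 2, which stood apart, 2 histidine and 3 lysine genes were lower, and 526 genes were higher and 546 lower in all. Leaving out each library in turn gave from 674 to 909 calls, from 259 (without [PRT1] replicate 2) to 440 lower genes, and 296 lower without [PRT1] replicate 1. Off chromosome VIII the higher genes ranged from 169 without [RBS1] replicate 3 to 245, with 170 without [PRT1] replicate 1. The arginine genes ranged from 4 to 6, the histidine genes from 2 to 4 and the lysine genes from 3 to 5. The median of 15 alcohol and aldehyde dehydrogenase genes was -0.148, ranged from -0.191 to 0.0271 with 1 library removed, reversing without [RBS1] replicate 2, and was 0.0271 without the 2 libraries that stood apart. The causes were not tested. With 3 libraries a strain, small differences and low genes are not resolved, and genes short in length carry the spread of [RBS1] replicate 2.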

Other observations

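FAS1, FAS2, ACC1 and HNM1 are outside the lists and were chosen after their values were seen. They were lower in [PRT1], and no other genes of fatty acid synthesis were tallied. FAS1, a subunit of fatty acid synthase, was at 549, 553 and 544 CPM in [PRT1] and 887, 1008 and 899 CPM in [RBS1] (log2 fold change -0.76, standard error 0.08, adjusted p = 6.5e-06). FAS2, the other subunit, differed by -0.77 (adjusted p = 5.6e-06) and ACC1, acetyl-CoA carboxylase, by -0.77 (adjusted p = 1.4e-05). In wt, FAS1 was at 656 to 685 CPM, between both strains. HNM1, the choline transporter, was at 95.0, 91.7 and 94.3 CPM in [PRT1] and 223, 240 and 233 CPM in [RBS1] (log2 fold change -1.31, standard error 0.10, adjusted p = 5.1e-07), and at 132 to 158 CPM in wt.

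FLO11, a cell surface adhesin, was at 64.4, 55.1 and 30.4 CPM in [PRT1] and 14.6, 15.9 and 13.2 CPM in [RBS1] (log2 fold change 1.78, adjusted p = 0.00054), and at most 33.8 CPM in the other strains. ISU2, a scaffold protein for iron-sulfur clusters, was at 75.6, 81.1 and 74.2 CPM in [PRT1] and 18.9, 21.0 and 22.5 CPM in [RBS1] (log2 fold change 1.89, standard error 0.13, adjusted p = 1.2e-07). In wt ISU2 was at 61.5 to 72.2 CPM, so [RBS1] was the strain away from wt. ZRT1, the high-affinity zinc transporter, was at 66.6, 59.8 and 54.4 CPM in [PRT1] and 133, 160 and 128 CPM in [RBS1] (log2 fold change -1.21, adjusted p = 0.00057).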
